A study of Homo sapiens with 24 samples.

Results

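Si306, an inhibitor of the kinase SRC, was added at 10 µM to U87 MG cells that then received 10 Gy of protons, and their RNA was set against that of cells given 10 Gy without the inhibitor. All scanner files whose label names both Si306 and 10 Gy were taken, which are 6 of the 24 in the series, and their headers place them on 2 of its 8 arrays, with 3 scans of each array. The scans of an array were averaged, so that n = 2 arrays. RNA was collected 24 h after irradiation, and the inhibitor had been in the medium since before the protons. On both arrays the RNA with Si306 carried Cy5 and the RNA of 10 Gy alone carried Cy3. No array had the dyes swapped, so dye and treatment cannot be told apart. The addition of Si306 to 2 Gy, compared in the same way with 2 Gy alone on 2 further arrays of the same slide, is used for contrast.

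SRC and its relatives are tyrosine kinases under the plasma membrane that pass signals from growth factor receptors and integrins on to proliferation, adhesion and movement. They are often active in glioblastoma, the malignant glial brain tumour from which U87 MG was established. An inhibitor acts on the kinase activity of the protein, so the level of the SRC transcript does not measure the inhibition.

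The RNA held the transcripts of a mesenchymal glioma line. Of 14 mesenchymal markers, 13 were well above background in both dyes on both arrays, all but CHI3L1. Of 9 astroglial markers 6 could be tested, 5 of them well above background in both dyes on both arrays, among them GFAP, the intermediate filament of astrocytes. The astroglial markers S100B, AQP4 and FABP7 could not be tested. In the 6 scans, between 57.3% and 59.6% of the probes (median 59.0%) were well above background in Cy3, and between 63.4% and 67.9% (median 65.9%) in Cy5. How precise the values are is limited by the number of arrays. The files do not settle whether the 2 arrays carry RNA of separate cultures, so the p-values measure the spread between arrays, which may be technical.

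With Si306 at 10 Gy, alpha globin, apolipoprotein L6, the lipid droplet protein CIDEA and the matrix proteoglycan decorin were among the transcripts with the largest rises. With the scanner's outlier spots kept, apolipoprotein L6 (log2 fold change 0.78), CIDEA (0.22) and decorin (0.73) no longer reached 2-fold. Most of the tested genes of HLA class II (11 of 15), of cholesterol and fatty acid synthesis (17 of 20) and of DNA replication (19 of 22) fell, by smaller amounts, the median of the last turning positive with median centring. A gene was called when its log2 fold change reached 1 in either direction with an adjusted p under 0.05 in limma. Of 22934 genes tested, 85 were called (0.371%), 66 of them up (0.288%) and 19 down (0.0828%). The adjusted p alone was under 0.05 for 14268 genes (62.2%), of which 8054 were up (35.1%) and 6214 down (27.1%), so most of the differences that passed it were small. It was under 0.05 for 3610 genes, 2316 of them up, with the scanner's outlier spots kept, and for 11137 or 10696 with array 1 or array 2 of Si306 with 10 Gy left out. With median centring the adjusted p was under 0.05 for 18612 genes, 13616 of them up. Counts of list members are read against the 35.1% up and 27.1% down, and under that scaling against 18612 and 13616. Below, genes that rose or fell are those with an adjusted p under 0.05, called or not. The log2 fold changes of all tested genes had a median of 0.03 and an SD of 0.263. Of the 85 called genes, 84 had the same sign on both arrays and 1, SLC24A3, was measured on 1 array only. A rise of 4-fold or more was seen for 9 genes, a fall of that size for 0, and the deepest fall was that of HLA-DRB1.

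**Figure D1:**
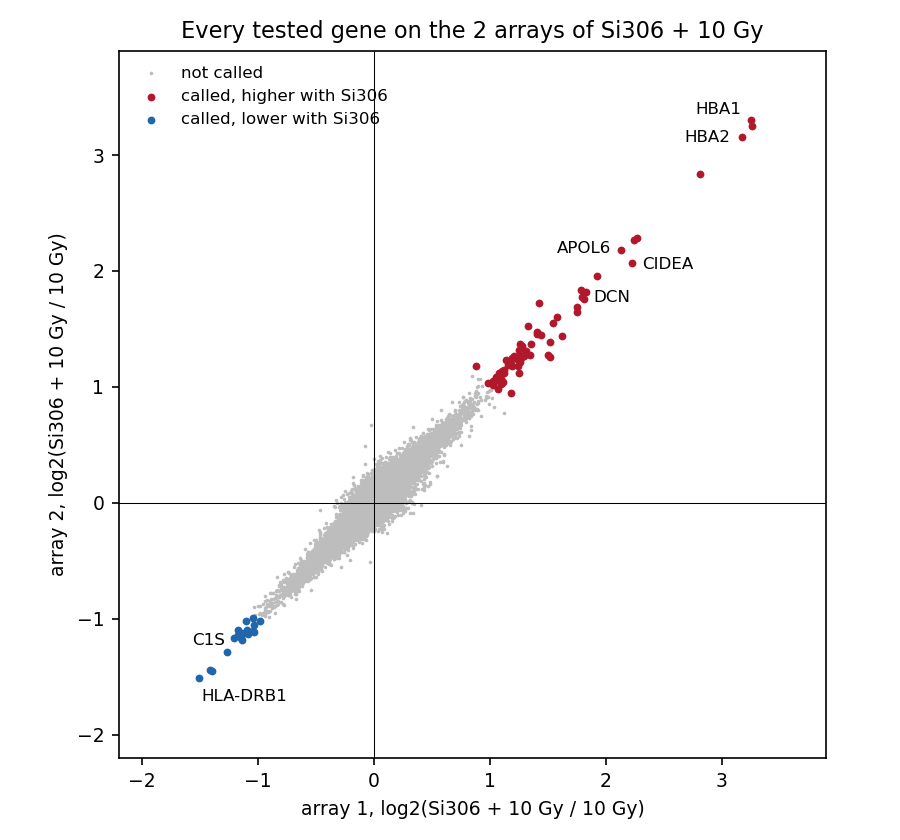
Each point is a tested gene, with its log2 ratio of Si306 with 10 Gy over 10 Gy alone on array 1 (horizontal) and on array 2 (vertical), and called genes in red (up) or blue (down). The called genes lie near the diagonal on both arrays, with HBA1 and HBA2 at the upper end and HLA-DRB1 at the lower.

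Most calls rest on a single probe. Of the 66 genes called up, 55 had 1 probe that could be measured. In the other 11 no second probe reached 2-fold, and in 10 of them every other probe lay within 0.5 of 0 on the log2 scale. Of the 19 called down, 11 had 1 probe, and in 3 of the other 8 the remaining probes stayed within that limit. A current gene symbol was found for 47 of the called genes. The other 38 carry array names that match no current symbol and are not named here, among them a transcript with a log2 fold change of 2.83. Both the count and its balance depended on how the spots and dyes were treated. With the spots that the scanner software marked as outliers kept in, 16 genes were called, 15 of them among the 85, and of the 24 called genes named below, HBA1, HBA2, OASL, HMOX1 and HLA-DRB1 were still called and 19 were not. Keeping them brought the value of 60 of the 109 named genes to under 50% of its size, so the sizes below hold with them left out. The scanner's ratio more than doubled 14 of the 109, and the mean of all probes of a gene brought 17 to under 50%. The medians of 5 of the 34 gene lists turned sign with these spots kept, and those of 14 with median centring. Centring each array on its median in place of the loess curve moved the median of all genes to 0.26. Under that scaling 1158 genes were called up and 1 down, so falls are read against this shift where it matters. Values at 10 Gy given below with median centring include this shift of 0.26, unless stated as relative to all genes.

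With the processing used here, 2 haemoglobin genes had the largest rises of the genes with a symbol. With the scanner's ratio TDRD10 (3.46) stood above HBA1 (3.38) and HBA2 (3.33). CIDEA (5.81) and PTPRD (3.49) did too, but in 10 Gy alone their signal was not well above background on either array. Their size and rank under that ratio are therefore uncertain. HBA1, which encodes alpha globin, had log2 ratios of 3.25 and 3.30 on the 2 arrays, and between 3.18 and 3.32 (median 3.29) in the 6 scans. Its log2 fold change was 3.27 (SE 0.04, adjusted p = 2.19e-12), or 9.67-fold. For HBA2, the second alpha globin gene, the arrays gave 3.17 and 3.15, the log2 fold change was 3.16 (adjusted p = 3.09e-12), and another probe of the same gene gave 0.05. The 2 genes encode the same protein and their probes may share sequence, and the HBA1 probe holds 60% GC. HBD, the delta globin gene, stood at 1.52 and 1.38 with a log2 fold change of 1.45 (adjusted p = 2.14e-08), although its Cy3 signal was well above background on 1 array only. HBQ1, the theta globin gene, rose without reaching 2-fold (0.74), but had 1.33 with the scanner's ratio. HBM, the mu globin gene, had 0.00 (adjusted p = 0.985), with a Cy3 signal not well above background on either array. Of 10 haemoglobin genes 7 could be tested and HBB, HBG1 and HBG2 could not. Among the 7, 5 rose and 0 fell, 3 were called, and the median was 0.74, positive under every scaling tried. HBA1 had 2.53, HBA2 2.36, HBD 0.13 and HBQ1 0.06 with the outlier spots kept, and the median of the 7 was then 0.06.

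With the processing used here, other transcripts of red blood cell precursors changed little or could not be tested. Of 10 erythroid markers 5 could be tested, while GYPB, KLF1, GATA1 and RHAG were among those that could not. In Cy3 only TFRC, the transferrin receptor that dividing cells also carry, was well above background on both arrays, and it was the brightest member. Among the 5, 2 rose and 1 fell, with SLC4A1, the anion exchanger (Cy3 well above background on 1 array), at 0.16 and TFRC at -0.18, and TFRC turned to 0.35 with median centring. The median was -0.00 and its sign differed between the scalings, with 0.37 for the scanner's ratio and -0.03 for median centring. Summed over the list, the log2 level in Cy5 was 10.37 on both arrays, against 10.49 and 10.48 in Cy3. For the haemoglobins the summed log2 level was 14.14 and 14.17 in Cy5 against 11.21 and 11.22 in Cy3, with HBA1 the brightest. The part of red blood cell transcripts in the globin rise was not tested. In bulk RNA, more or fewer cells of a type and more or less RNA per cell cannot be told apart. The globins rose at 2 Gy as well, with 2.28 for HBA1 and 2.21 for HBA2. The rise was larger at 10 Gy by 0.99 for HBA1 (adjusted p = 1.38e-06) and 0.95 for HBA2 (adjusted p = 2.36e-06). For HBD the difference was 1.00 (adjusted p = 3.25e-05). With the outlier spots kept these differences were 0.72, 0.66 and 0.06, and that of HBD did not pass (adjusted p = 0.573). The difference of HBA2 was 0.52 with the mean of its probes. With the scanner's ratio it was 0.96 and did not pass (adjusted p = 0.197).

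**Figure D2:**
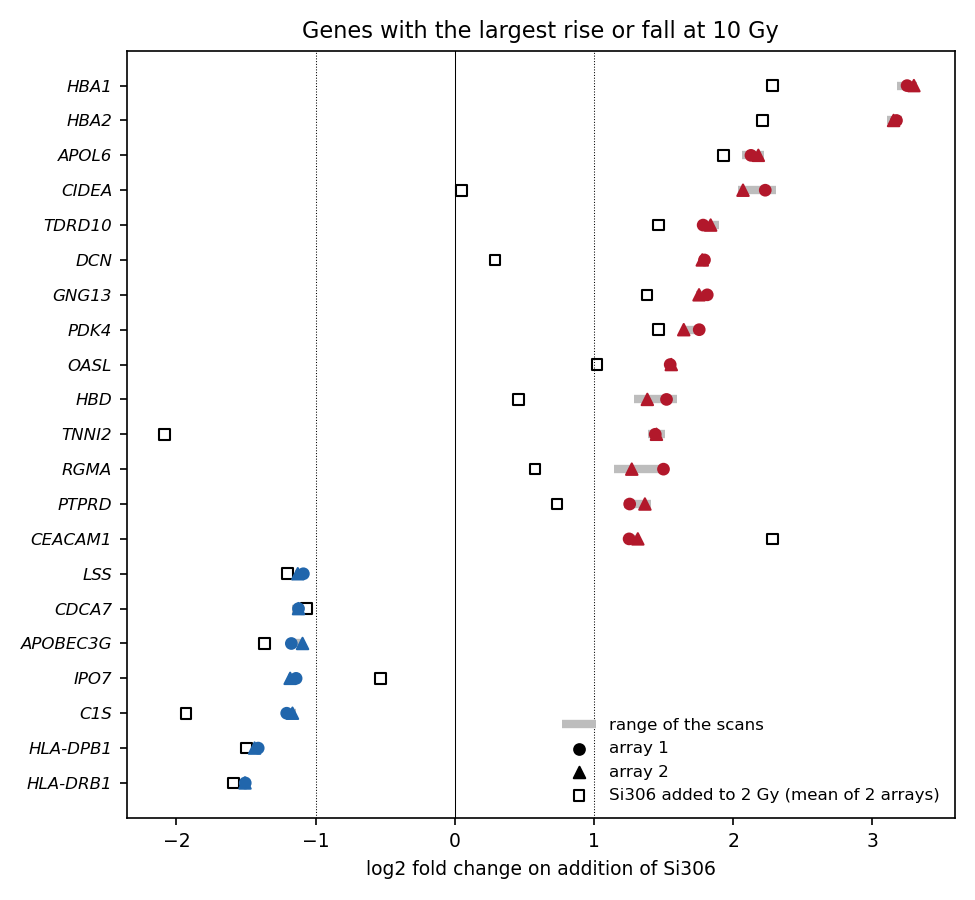
Log2 fold change on addition of Si306 to 10 Gy (horizontal) for 14 named genes that were among the largest rises and the 7 named genes that fell most, with a circle for array 1, a triangle for array 2, a grey bar for the range of the scans and an open square for the mean at 2 Gy. The arrays lie close together for each gene, while TNNI2, CIDEA and DCN are far from their value at 2 Gy; with median centring, the fall of HLA-DPB1 alone of these 7 still reaches 2-fold.

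APOL6, an apolipoprotein L induced by interferon, had log2 ratios of 2.13 and 2.18 on the arrays and between 2.06 and 2.22 in the scans, which averaged 2.15 (SE 0.04, adjusted p = 1.84e-10). Both arrays were about equally high, but its other probe gave -0.15. CIDEA, a protein of lipid droplets, stood at 2.23 and 2.07 (scans between 2.03 and 2.30), with a log2 fold change of 2.15 (adjusted p = 1.67e-10). In 10 Gy alone the CIDEA signal was not well above background on either array. The size of its rise, 4.44-fold with the outlier spots left out, is therefore uncertain and open to dye bias. PDK4, the kinase that slows the entry of pyruvate into the citric acid cycle, gave 1.76 and 1.65, and its log2 fold change was 1.70 (adjusted p = 6.27e-10). All 3 were higher on both arrays. HMOX1, the haem oxygenase that breaks haem down to biliverdin, rose as well, with 1.19 and 1.18 on the arrays and a log2 fold change of 1.19 (adjusted p = 2.05e-09). With the outlier spots kept, APOL6 had 0.78, CIDEA 0.22, PDK4 0.54 and HMOX1 1.01.

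TNNI2, the inhibitory troponin of fast skeletal muscle, had 1.44 and 1.45 on the arrays and between 1.39 and 1.51 in the scans, with a log2 fold change of 1.44 (adjusted p = 2.30e-09) on a probe with 60% GC. The guidance molecule RGMA had 1.50 and 1.27, a log2 fold change of 1.39 (3.29 with the scanner's ratio), and -0.03 on its other probe, with a Cy3 signal well above background on 1 array only. For PTPRD, a receptor tyrosine phosphatase, the arrays gave 1.26 and 1.37, with a Cy3 signal not well above background on either. The size of its rise, 2.48-fold with the outlier spots left out, is therefore uncertain. CEACAM1, an adhesion molecule of epithelia and leukocytes, rose by 1.28 on 1 of its 3 probes, while the other 2 stood at -0.07 and -0.01. GNG13, a G protein gamma subunit (1.78), and TDRD10, a tudor domain protein (1.81), were called on the 1 probe each had. SLC24A3, a sodium, potassium and calcium exchanger, had 2.03 on array 1 and no value on array 2. For CEACAM1 and RGMA the mean of all probes of the gene was 0.40 and 0.68, below 2-fold. With the outlier spots kept, TNNI2 had 0.93, SLC24A3 0.28, GNG13 0.23, TDRD10 0.21, CEACAM1 0.13, RGMA 0.12 and PTPRD 0.10.

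The genes of HLA class II encode the molecules that present peptides to helper T cells, with the chaperone CD74 and the transcriptional activator CIITA. Of 15 members tested 11 fell and 0 rose, 2 were called, and the median was -0.45 (-0.47 and -0.44 on the arrays) against 0.03 for all genes. The median stayed negative under every scaling tried, at -0.15 with median centring, or -0.41 relative to all genes. HLA-DRB1 had -1.51 on both arrays, with scans between -1.52 and -1.49, and averaged -1.51 (SE 0.03, adjusted p = 3.73e-10). HLA-DPB1 stood at -1.41 and -1.44, with scans between -1.45 and -1.40 and a mean of -1.43 (SE 0.04, adjusted p = 2.05e-09). All 6 scans were low for both genes. With the outlier spots kept, HLA-DRB1 had -1.25 and HLA-DPB1 -0.29, and with median centring HLA-DRB1 had -0.88 and HLA-DPB1 -1.03. CD74 had -0.06 and HLA-DRA -0.12 with the outlier spots kept, where the median of the list was -0.06. Another probe of HLA-DPB1 gave -0.74, and the probes of the HLA-DRB genes may share sequence. CD74 (-0.71) and HLA-DRA, the alpha chain of DR (-0.62), fell by less than 2-fold, with -0.60 and -0.24 after median centring. With the scanner's ratio they had -1.44 and -0.76, which for CD74 is beyond 2-fold. CIITA had -0.07 (adjusted p = 0.208) and HLA-DMA, which loads the peptides, 0.05 (adjusted p = 0.417). In RefSeq (GRCh38.p14), 11 of the 15 genes had a promoter stretch of 300 bases, from 250 before to 50 after the transcript's start. The letters CCAAT, the box bound by the factor NF-Y, were found on either strand in 10 of the 11 (90.9%), against 35.7% of all 27305 promoters in the table. A match in letters is no measured binding site. The stretches from 160 to 41 bases before the start are shown for the 2 called genes and CD74, because they hold these letters, in capitals as CCAAT or, for the other strand, ATTGG. They lie at chr6:32589889-32590008 on the minus strand, chr6:33075830-33075949 on the plus strand and chr5:150412951-150413070 on the minus strand.
HLA-DRB1: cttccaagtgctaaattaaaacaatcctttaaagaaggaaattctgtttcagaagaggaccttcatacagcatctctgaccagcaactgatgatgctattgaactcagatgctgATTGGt
HLA-DPB1: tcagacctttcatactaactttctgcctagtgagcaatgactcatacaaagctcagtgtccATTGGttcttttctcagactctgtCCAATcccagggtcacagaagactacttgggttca
CD74: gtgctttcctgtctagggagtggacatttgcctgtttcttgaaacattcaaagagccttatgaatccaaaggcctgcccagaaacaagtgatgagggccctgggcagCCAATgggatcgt

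Of 16 genes of HLA class I and its loading 10 fell and 2 rose, 0 were called, and the median was -0.21, which turned to 0.43 with median centring. PSMB9, a subunit of the immunoproteasome, had the lowest log2 fold change (-0.76, and -0.14 with median centring). HLA-B (-0.56) and its partner B2M (-0.48, other probe -0.13) fell and turned to 0.29 and 0.44 with median centring. ERAP2, a peptidase that trims peptides in the endoplasmic reticulum, had 0.12, but -0.07 with the mean of its probes. At 2 Gy the medians were lower, -0.68 for class II and -0.32 for class I. The fall of HLA-DRA was smaller at 10 Gy, with a difference of 0.41 (adjusted p = 1.35e-04), as was that of CD74, with 0.28 (adjusted p = 0.00244), although neither passed with the outlier spots kept (adjusted p = 0.322 and 0.379). HLA-DRB1 and HLA-DPB1 had -1.59 and -1.50 at 2 Gy, differences of 0.08 (adjusted p = 0.212) and 0.07 (adjusted p = 0.395). That of HLA-DRB1 passed with median centring in the opposite direction (-0.25, adjusted p = 0.0117), where 13777 genes passed in place of 5169. That of HLA-DPB1 passed with the mean of its probes (0.21, adjusted p = 0.0101).

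Of the 34 gene lists, that of cholesterol and fatty acid synthesis had the lowest median with the processing used here, but HLA class II with median centring and the metallothioneins with the outlier spots kept. The enzymes of cholesterol synthesis and the regulator SREBF2 are switched on together in cells short of sterol. Of 20 members 17 fell and 0 rose, 1 was called, and the median was -0.52 (-0.53 and -0.52 on the arrays), or -0.36 with these spots kept. The sign stayed negative under every scaling tried, but with median centring the median was -0.04, or -0.30 relative to all genes, and 7 members were up and 8 down. LSS, the cyclase that makes lanosterol, had -1.09 and -1.13 on the arrays, between -1.15 and -1.08 in the scans, and its mean was -1.11 (SE 0.03, adjusted p = 3.87e-09). Both arrays were low, whereas the other 3 probes of LSS lay between -0.85 and -0.08. LSS had -0.88 with the outlier spots kept and -0.49 with median centring. The sterol carrier STARD4 (-0.72), SREBF2 (-0.53) and FDPS, which makes farnesyl diphosphate (-0.38), fell. They had -0.21, -0.19 and -0.38 with the outlier spots kept, and -0.25, -0.02 and 0.34 with median centring. FASN, the fatty acid synthase, had 0.06 (adjusted p = 0.237) and was not well above background. The list had a median of -0.48 at 2 Gy. Promoter stretches were found in RefSeq (GRCh38.p14) for 13 of the 20 genes. CCAAT, on either strand, was in 10 of them (76.9%, against 35.7% of all promoters). The sterol regulatory element TCACNCCAC was found in 1, that of SREBF2 (7.69%, against 1.15%). For LSS, STARD4, SREBF2 and FDPS the stretch from 160 to 41 bases before the start is shown because these letters lie in it, again with CCAAT or ATTGG in capitals, and in SREBF2 also the sterol element. They lie at chr21:46228815-46228934 and chr5:111512576-111512695 on the minus strand, and at chr22:41832945-41833064 and chr1:155308706-155308825 on the plus strand.
LSS: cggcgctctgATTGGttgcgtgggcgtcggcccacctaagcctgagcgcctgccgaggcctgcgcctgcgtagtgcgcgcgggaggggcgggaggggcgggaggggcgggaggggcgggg
STARD4: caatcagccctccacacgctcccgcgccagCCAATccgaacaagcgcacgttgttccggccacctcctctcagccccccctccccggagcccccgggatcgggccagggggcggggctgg
SREBF2: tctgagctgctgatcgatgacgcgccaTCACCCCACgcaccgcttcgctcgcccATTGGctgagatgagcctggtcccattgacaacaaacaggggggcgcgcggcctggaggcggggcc
FDPS: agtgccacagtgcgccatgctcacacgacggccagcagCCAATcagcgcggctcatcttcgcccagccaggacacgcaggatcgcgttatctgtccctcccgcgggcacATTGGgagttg

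Of 22 genes of DNA replication 19 fell and 1 rose, with a median of -0.35 (-0.33 and -0.38 on the arrays), which turned to 0.23 with median centring (14 up and 4 down), or -0.03 relative to all genes, and was -0.16 with the outlier spots kept. RRM2, a subunit of the reductase that makes deoxynucleotides, had -0.88 and -0.90 on the arrays and the lowest log2 fold change (-0.89, adjusted p = 1.35e-08), with -0.27 on its other probe and -0.29 with median centring. The helicase subunit MCM7 (-0.76), the sliding clamp PCNA (-0.72) and the S phase activator E2F1 (-0.75) fell too, and had 0.05, 0.02 and -0.17 with median centring. Relative to all genes under that scaling, MCM7, PCNA and E2F1 had -0.21, -0.23 and -0.43. POLE, the leading strand polymerase, had 0.17. CDCA7, a gene driven by MYC and E2F factors, was called, with -1.12 on both arrays, a log2 fold change of -1.12 (adjusted p = 3.51e-09) and -0.52 on its other probe. Of 27 genes of G2 and mitosis 16 fell and 3 rose. Their median was -0.12, turning to 0.51 with median centring, where CENPF (-0.67, other probe -0.11) and PLK1 (-0.57) also turned, to 0.11 and 0.06. CENPF and PLK1 had -0.14 and -0.20 there relative to all genes. CDC25C, the phosphatase that starts mitosis, had 0.24. IPO7, an importin that carries ribosomal proteins and other cargo into the nucleus, stood at -1.14 and -1.18 and was called (log2 fold change -1.16, adjusted p = 1.10e-08), while its other probe gave -0.00. CDCA7 had -0.65 and IPO7 -0.32 with the outlier spots kept, and -0.55 and -0.71 with median centring.

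Of 23 targets of p53 9 rose and 7 fell, with a median of 0.01, where 35.1% of all genes rose and 27.1% fell. With median centring the median was 0.26 and 19 members were up, as the median of all genes also moved to 0.26. Of all 22934 genes, 13616 were up under that scaling. The secreted stress factor GDF15 (0.67) and the cell cycle inhibitor CDKN1A (0.22) rose. BBC3, which encodes the death protein PUMA, had -0.64 on a probe with 85% GC, while its other probes lay between 0.02 and 0.17, and it had -0.04 with median centring. In the BCL2 family and the caspases 11 of 24 rose and 10 fell, with a median of 0.06 (0.47 with median centring) and the highest value for BAK1, a pore-forming killer protein (0.50).

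**Figure D3:**
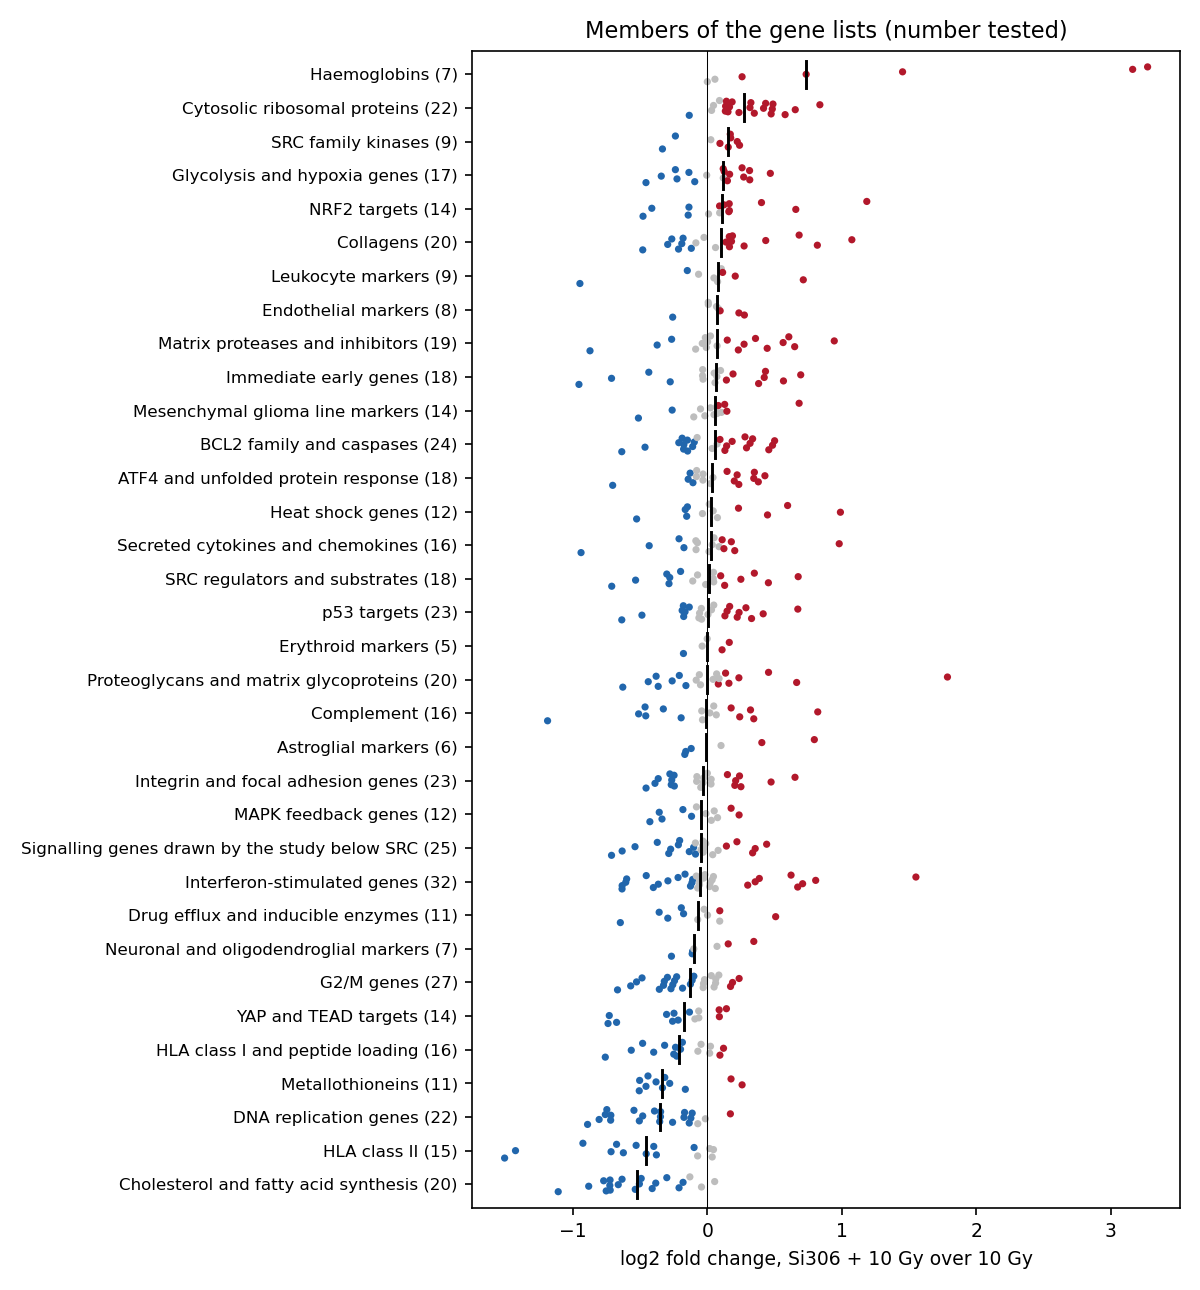
Log2 fold change on addition of Si306 to 10 Gy (horizontal) for every tested member of each gene list, in red or blue where it was higher or lower with an adjusted p under 0.05 and in grey elsewhere, with a black bar at the list's median and the number tested in brackets. The haemoglobins have the highest median and cholesterol synthesis the lowest, which are the ribosomal proteins and HLA class II with median centring, and the ribosomal proteins and metallothioneins with the outlier spots kept. With median centring HLA class I, DNA replication, G2/M, metallothioneins and the YAP and TEAD list, among others, turn positive.

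SRC itself had log2 ratios of 0.18 and 0.17 on the arrays and between 0.16 and 0.19 in the scans, and averaged 0.17 (SE 0.03, adjusted p = 4.62e-04). Its Cy3 signal was not well above background on either array. SRC had 0.09 with median centring, 0.01 with the outlier spots kept and 0.59 with the scanner's ratio. At 2 Gy it had 0.14, a difference of 0.03 (adjusted p = 0.645). That difference was 0.19 (adjusted p = 0.0353) with median centring, where 13777 genes passed in place of 5169. Of the 9 family members 6 rose and 2 fell, with a median of 0.16. With median centring 3 were up and 3 down, and the median was 0.01. Of those that rose, SRC, LCK, FGR and FRK had no Cy3 signal well above background on either array, and LCK none in Cy5. The sizes of these rises are therefore uncertain. FGR, a member found mainly in myeloid cells, was not well above background in Cy3 on either array. Its value of 0.24 became -0.03 with median centring, 0.01 with the outlier spots kept and 1.74 with the scanner's ratio. YES1, which is widely expressed, had the lowest value (-0.33) and turned to 0.21 with median centring. Of 19 regulators and substrates of SRC 18 were tested, with 6 up and 6 down and a median of 0.02 (0.53 with median centring). The kinase ABL2 rose (0.68, other probe 0.19), and the phosphatase PTPN11, known as SHP2, fell (-0.71, other probes between -0.56 and 0.04, and 0.02 with median centring).

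Genes downstream of SRC went in both directions, as did all genes, of which 35.1% rose and 27.1% fell. Of 25 signalling genes that the study itself drew below SRC from these samples, which makes them no independent evidence, 5 rose and 11 fell, with a median of -0.05 that turned to 0.09 with median centring. The growth regulator MYC fell (-0.71, adjusted p = 2.60e-08, other probe 0.05, and -0.03 with median centring), and the kinase subunit PIK3R3 had the highest value (0.44, other probe -0.03). Among 18 immediate early genes, which answer growth and stress signals within minutes, 7 rose and 4 fell, with a median of 0.07 (0.57 with median centring). ATF3 was highest (0.70, other probe -0.18) and KLF6 lowest (-0.95, adjusted p = 5.01e-09, other probes -0.16 and -0.59, and -0.24 with median centring). Of 12 feedback genes of the MAPK pathway 2 rose and 5 fell, their median of -0.04 turning to 0.42 with median centring, as PHLDA1 (-0.43) turned to 0.35. SPRED1 had 0.24 and, on its other probe, -0.21. Of 14 genes of YAP and TEAD, the regulators that read cell spreading and stiffness, and their targets, 8 fell and 3 rose. The list holds the regulators YAP1, WWTR1, TEAD1 and TEAD4 themselves. Its median of -0.17 turned to 0.41 with median centring. The receptor kinase AXL (-0.74) and the matricellular protein CCN2 (-0.67) fell, but had -0.03 and 0.00 with median centring, and ANKRD1 had 0.14. Of 23 integrin and focal adhesion genes 7 rose and 8 fell, and the median of -0.03 turned to 0.53 with median centring. They ranged from ITGB3 (0.65, other probes between 0.04 and 0.15) to the actin crosslinker FLNA (-0.45, and -0.18 with median centring). With the outlier spots kept, ITGB3 had 0.06 and FLNA -0.06.

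Genes of the extracellular matrix went in both directions, as did all genes, of which 35.1% rose and 27.1% fell. Decorin, DCN, a small proteoglycan that binds collagen and growth factors, had 1.79 and 1.78 on the arrays and between 1.77 and 1.81 in the scans, and averaged 1.79 (SE 0.03, adjusted p = 4.34e-10). All 6 scans were high for DCN. COL3A1, the chain of type III collagen, stood at 1.11 and 1.04 and was called (1.08, adjusted p = 2.88e-08). DCN had 0.73 and COL3A1 0.65 with the outlier spots kept. COL8A1 (0.82) and COL1A2 (0.68, other probe 0.09) rose without reaching 2-fold, and COL6A1 fell (-0.48, other probe 0.01) but turned to 0.46 with median centring. Of 20 collagens 10 rose and 7 fell, with a median of 0.10 (0.54 with median centring). Of 22 proteoglycans and matrix glycoproteins 20 were tested, with 7 up and 7 down and a median of -0.00, positive in the other scalings. Versican, VCAN, rose (0.67, but 0.12 with the outlier spots kept). Of 19 matrix proteases and their inhibitors 9 rose and 3 fell, with a median of 0.07 (0.60 with median centring). ADAMTS1, a protease that cleaves versican, had 0.89 and 1.00 (log2 fold change 0.94, and 0.47 with the outlier spots kept). MMP2, a gelatinase with a Cy3 signal not well above background, was 1.57-fold higher with the outlier spots left out (0.65), a size that is uncertain. It had 0.04 with them kept and 1.98 with the scanner's ratio. PLAUR, the urokinase receptor, fell (-0.87, and -0.31 with median centring).

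Interferon and complement genes did not share 1 direction, nor did all genes, of which 35.1% rose and 27.1% fell. OASL, an interferon-induced relative of the oligoadenylate synthetases, had 1.55 and 1.56 on the arrays and between 1.52 and 1.58 in the scans (log2 fold change 1.55, SE 0.03, adjusted p = 2.20e-10). IFIT2, another early interferon target, rose (0.81), while the GTPase GBP1 fell (-0.63, and -0.10 with median centring). Of 33 interferon-stimulated genes 32 were tested, 8 rose and 13 fell, and the median of -0.06 turned to 0.51 with median centring. APOBEC3G, a cytidine deaminase that restricts retroviruses, was called on 1 probe, with -1.17 and -1.09 (log2 fold change -1.13, adjusted p = 7.99e-09) and -0.40 on the other. In the complement system C1S, the protease of the first component, had -1.21 and -1.17, with scans between -1.24 and -1.14, and was called (-1.19, SE 0.04, adjusted p = 1.06e-08). With the outlier spots kept, OASL had 1.47, APOBEC3G -0.21 and C1S -0.42, and with median centring APOBEC3G and C1S had -0.76 and -0.69. Its partner C1R fell (-0.51, 0.03 with median centring), and CFD, the protease of the alternative pathway, rose (0.82). Of 21 complement genes 16 were tested, with 5 up and 6 down and a median of -0.01, positive in the other scalings. Of 19 cytokines and chemokines 16 were tested, with 5 up and 4 down and a median of 0.03 that was -0.00 with the scanner's ratio. IL11, a cytokine of the IL6 family, had 0.89 and 1.07 (0.98), and CXCL1, which attracts neutrophils, fell (-0.94, and -0.32 with median centring).

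Of 22 cytosolic ribosomal proteins 18 rose and 1 fell, with a median of 0.28 (1.20 with median centring), positive under every scaling tried, from RPL35 (0.84) to RPL4 (-0.13, but 0.68 with median centring). Of 11 metallothioneins, which bind zinc and copper, 9 fell and 2 rose. Their median of -0.33 turned to 0.38 with median centring, as MT2A (-0.32) and MT1H (-0.51) turned to 0.63 and 0.34, and MT3, the brain form, rose (0.26, other probe -0.01). Among 14 targets of the oxidative stress factor NRF2 8 rose and 4 fell, with a median of 0.11 (0.29 with median centring), HMOX1 highest and the thioredoxin reductase TXNRD1 lowest (-0.48, and -0.10 with median centring). Of 17 genes of glycolysis and hypoxia 9 rose and 6 fell, with a median of 0.12. With median centring it was 0.71 and all 17 were up, where 13616 of all 22934 genes were up. The hexokinase HK2 had 0.47 on its brightest probe and -0.50 on the other, and BNIP3 fell (-0.46) but turned to 0.37 with median centring. Of 14 heat shock genes 12 were tested, with 4 up and 4 down and a median of 0.03. With median centring it was 0.80 (0.54 relative to all genes) and all 12 were up, against 13616 of all 22934 genes. The small chaperone CRYAB had 0.91 and 1.07 (0.99, but 0.14 with the outlier spots kept), and HSPA8 fell (-0.52), turning to 0.43 with median centring. Of 18 genes of ATF4 and the unfolded protein response 8 rose and 4 fell, with a median of 0.03. With median centring it was 0.64 and 16 were up, against the same 13616 of 22934 genes. The list ranged from the co-chaperone DNAJB9 (0.43) to HERPUD1 (-0.70, and 0.08 with median centring). Of 12 drug efflux and inducible enzymes 11 were tested, with 2 up and 5 down and a median of -0.07, negative in every scaling tried, from CYP1A2 (0.51) to the transporter ABCC5 (-0.65, other probe -0.04, and -0.08 with median centring).

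Counts of cell type markers are read against all genes, of which 35.1% rose and 27.1% fell. Of 12 leukocyte markers 9 were tested, not PTPRC, CD3D or AIF1, and 3 rose and 2 fell (median 0.08), or 5 rose with the scanner's ratio. The lysosomal protein CD68, which many cells express, had the highest value (0.71) and lysozyme, LYZ, the lowest (-0.95, and -0.43 with median centring). With the outlier spots kept, CD68 had 0.12 and LYZ -0.37. Of 8 endothelial markers 3 rose and 1 fell, with a median of 0.08 that was -0.05 with median centring, from PECAM1 (0.28) to ESAM (-0.26, and 0.23 with median centring). Of 11 neuronal and oligodendroglial markers 7 were tested, with 2 up and 3 down, and the median of -0.10 was positive with median centring (0.08). SYT1 of synaptic vesicles had 0.35. GAD1, which makes the transmitter GABA, had -0.27 on its brightest probe and 0.40 on the other. Of the 6 astroglial markers tested 2 rose and 3 fell, with a median of -0.01 that turned to 0.31 with median centring. ALDH1L1, a folate enzyme of astrocytes, rose (0.80), as did GFAP (0.41), with 0.06 and 0.08 when the outlier spots were kept. The stem cell factor SOX2 fell (-0.17, other probe 0.05, and 0.20 with median centring). Of the 14 mesenchymal markers 4 rose and 2 fell, with a median of 0.06 that was -0.01 with the scanner's ratio. It was 0.79 with median centring, where 13 were up, as were 13616 of all 22934 genes. The intermediate filament VIM fell (-0.51) and turned to 0.54 with median centring.

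The response to Si306 at 10 Gy was then set against that at 2 Gy. In limma the difference between the doses had an adjusted p under 0.05 for 5169 of 22910 genes (22.6%), and it reached 2-fold for 39 (0.17%). The count of 5169 became 323 with the outlier spots kept and 13777 with median centring. With single arrays left out the count of 5169 fell to between 2432 and 3309, whichever of the 4 arrays was left out, and that of 39 became 35 to 43. The 2 dose groups have their own RNA in both dyes.

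DCN had 0.29 at 2 Gy against 1.79 at 10 Gy, CIDEA 0.05 against 2.15 and SLC24A3 0.28 against 2.03. At 10 Gy they had 0.73, 0.22 and 0.28 with the outlier spots kept, where 11 differences in place of 39 reached 2-fold. The differences of DCN (0.56), CIDEA (0.21) and SLC24A3 (0.23) did not. TNNI2 fell at 2 Gy (-2.09) and rose at 10 Gy (1.44), a difference of 3.53 (adjusted p = 1.11e-10), or 1.92 (adjusted p = 0.00799) with those spots kept. PVALB, the calcium buffer parvalbumin, had -1.04 against 0.53, with a difference of 0.22 when they were kept. In the opposite direction stood 27 of the 39 genes, all with a positive value at 2 Gy. The chemokine receptor CCR3 had 2.68 at 2 Gy and 0.32 at 10 Gy, and the guanine nucleotide exchange factor ARHGEF15 3.00 and 0.99. The immediate early gene FOS had 2.09 at 2 Gy. At 10 Gy its arrays gave 0.16 and 0.12, from 3 scans (log2 fold change 0.14, adjusted p = 0.00469). ATF3 had 1.88 at 2 Gy and 0.70 at 10 Gy, and CEACAM1 2.28 and 1.28. HMOX1 rose at both doses, by 2.11 at 2 Gy, with a difference of -0.92 (adjusted p = 6.93e-07). C1S fell by less at 10 Gy (-1.93 at 2 Gy, difference 0.75, adjusted p = 2.59e-05), and IPO7 by more (-0.53 at 2 Gy, difference -0.63, adjusted p = 7.77e-05), although the difference of IPO7 was -0.02 with the outlier spots kept. COL3A1 (1.23 at 2 Gy, difference -0.16, adjusted p = 0.113) and LSS (-1.20 at 2 Gy, difference 0.09, adjusted p = 0.206) were not shown to differ here. With median centring both passed (-0.44, adjusted p = 6.45e-05, and -0.24, adjusted p = 0.0170), LSS in the opposite direction. Under that scaling 13777 genes passed in place of 5169. COL3A1 also passed with the outlier spots kept (-0.31, adjusted p = 0.0409).

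**Figure D4:**
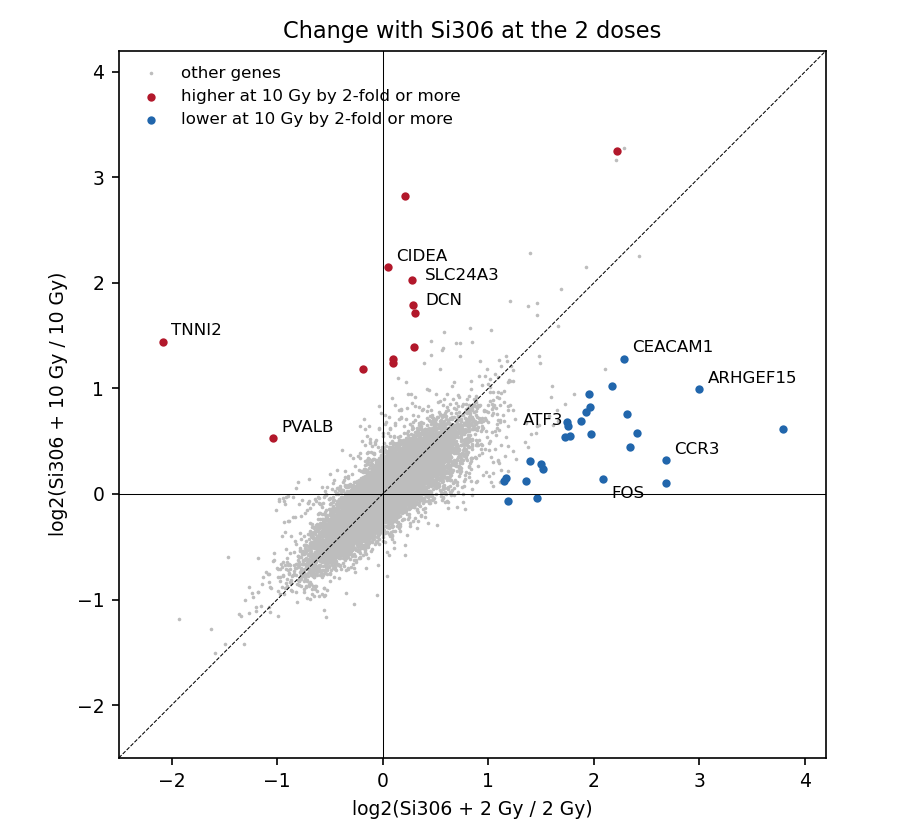
Log2 fold change on addition of Si306 to 2 Gy (horizontal) and to 10 Gy (vertical) for each gene, in red or blue where it was higher or lower at 10 Gy by 2-fold or more with an adjusted p under 0.05, and a dashed line of equal change. The blue points all lie at positive values for 2 Gy, and TNNI2 and PVALB are negative at 2 Gy and positive at 10 Gy.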

How the data were processed

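RNA of U87 MG cells was measured on Agilent 4x44K 2-colour arrays. The authors deposited, for each scan, the mean signal intensity and local background of both dyes, and the log10 ratio of Cy5 to Cy3 that the scanner software computed from signals it had corrected for background and normalized between dyes. The deposited series matrix holds the same log10 ratio, rounded. The intensities were used here.

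Spots that the software marked as outliers were left out (2.99% to 3.41% of a scan with Si306 and 10 Gy). Intensities were corrected with limma's normexp method (offset 50), and log2 ratios were normalized by loess within each scan. Spots of a probe, then the scans of an array, were averaged. In the whole series 2 scans, both without Si306, carried a label that disagreed with their array and were left out, so that 22 scans on 8 arrays were fitted. A probe was kept when well above background in either dye on at least 2/3 of the arrays of 1 of the 4 configurations (30414 of 41000 probes). The brightest probe stood for its gene name. Of 41000 probes, 23434 were named through an accession, 2317 through a symbol and 1040 through an older symbol.

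The models used limma 3.58.1 (R 4.3.3, statmod 1.5.0, and the package data.table, version 1.17.8), with 1 coefficient for each configuration, 4 residual degrees of freedom, a prior of 6.55 degrees of freedom, and Benjamini-Hochberg adjustment over genes. The fit was tested on simulated data. Tables and figures were made with Python 3.11.15, pandas 2.3.3, numpy 2.4.6 and matplotlib 3.10.9. The alternatives tried concerned background, scaling, the outlier spots, the filter, probes of a gene, GC-rich probes, the use of scans, blocks and single arrays.

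The genes named are the 15 called genes with the largest rise and up to 15 with the largest fall among array names that are current symbols, the called members of the gene lists, the highest and lowest member of each list and SRC, and the 5 genes with the largest difference between the doses in each direction. Another 22 (STARD4, SREBF2, FDPS, PCNA, MCM7, E2F1, PLK1, CDKN1A, CD74, HLA-DRA, CIITA, HLA-B, B2M, IFIT2, C1R, HBQ1, CCN2, MT2A, GFAP, MMP2, VCAN, COL8A1) were chosen after their values were seen. Some genes that this rule takes are not reported here. The members and lists were chosen with earlier results of these data known.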

Additional observations from a re-analysis of the deposited data

Results flagged for a closer look

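The change on addition of Si306 differed between 10 Gy and 2 Gy by 2-fold or more, tested as a contrast in limma, for the named genes below. The value given is the log2 change at 10 Gy minus that at 2 Gy. The difference was 3.53 for TNNI2 (adjusted p = 1.11e-10), whose sign changed between the doses. It was 2.10 for CIDEA (adjusted p = 6.88e-09), 1.75 for SLC24A3 (adjusted p = 1.66e-07) and 1.50 for DCN (adjusted p = 2.35e-07). PVALB, with 1.57 (adjusted p = 1.66e-07), also changed sign. In the other direction the difference was -2.36 for CCR3 (adjusted p = 3.93e-08), -2.01 for ARHGEF15 (adjusted p = 3.85e-09) and -1.94 for FOS (adjusted p = 4.38e-09). ATF3 had -1.19 (adjusted p = 2.20e-07) and the rise of CEACAM1 dropped by 1.00 (adjusted p = 1.00e-05). The value of SLC24A3 at 10 Gy comes from 1 array, whose spread is taken from the other groups, so its p-value rests on them. The Cy3 signal of CIDEA at 10 Gy was not well above background on either array, so the size of its difference is uncertain. With the outlier spots kept, the differences of TNNI2 (1.92), ARHGEF15 (adjusted p = 0.00179), ATF3 (-1.05) and CCR3 (adjusted p = 0.0358) still reached 2-fold with an adjusted p under 0.05. Those of CIDEA (0.21), SLC24A3 (0.23), DCN (0.56), PVALB (0.22), FOS (-1.33, adjusted p = 0.0721) and CEACAM1 (-0.70) did not, so these 6 depend on leaving the spots out. With the mean of a gene's probes ATF3 had -0.64 and CEACAM1 -0.34, both under 2-fold. The other 8 genes have 1 measured probe each, so averaging probes could not move them. What lies behind these differences was not tested.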

How the results depend on the processing

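The 85 calls (66 up, 19 down) became 920 (652 up, 268 down) with the scanner's ratio and with the series matrix, 1159 (1158 up, 1 down) with median centring, and 16 (12 up, 4 down) with outlier spots kept. All 85 were among the 920, 67 among the 1159 and 15 among the 16. The called members of the gene lists, 11, became 25, 25, 68 and 5 in this order. The 39 differences of 2-fold between the doses became 277, 277, 103 and 11. The 5169 differences became 13777 with median centring, 323 with outlier spots kept, 1902 with the 2 scans of disagreeing label kept, and 2432 to 3309 with single arrays left out. In these fits the lone array is assumed to vary like the other groups. Each scan with Si306 and 10 Gy held 10 to 29 spots with a local background over 1000, all marked as outliers. The cause of these changes was not tested. Without array 1 of Si306 with 10 Gy 87 genes were called, 81 of them among the 85, and without array 2 91, 82 of them among the 85. SLC24A3 has no value without array 1.

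Of the 109 named genes, 25 with an adjusted p under 0.05 reversed with median centring: B2M 0.44, BNIP3 0.37, C1R 0.030, CCN2 0.0009, CENPF 0.11, COL6A1 0.46, ESAM 0.23, FDPS 0.34, FGR -0.032, GAD1 0.27, HERPUD1 0.078, HLA-B 0.29, HSPA8 0.43, MCM7 0.045, MT1H 0.34, MT2A 0.63, PCNA 0.024, PHLDA1 0.35, PLK1 0.062, PTPN11 0.023, RPL4 0.68, SOX2 0.20, TFRC 0.35, VIM 0.54 and YES1 0.21. Relative to the median of all genes under that scaling, C1R (-0.23), CCN2 (-0.26), CENPF (-0.14), HERPUD1 (-0.18), MCM7 (-0.21) and PCNA (-0.23) stayed negative. So did PLK1 (-0.20), PTPN11 (-0.24), ESAM (-0.03), SOX2 (-0.06) and YES1 (-0.05), while the rest of these kept the reversed sign. With the mean of a gene's probes ERAP2 had -0.071, GAD1 0.069 and HK2 -0.015, and without GC-rich probes BBC3 had 0.17. Weaker, that is no longer called, were 19 named genes with outlier spots kept, 6 with the mean of probes and 6 with median centring. With the scanner's ratio 11 became called, and with median centring 17. Without having passed that adjusted p, CIITA (0.096), FASN (-0.33) and HBM (-0.11) also turned sign with median centring, FASN (-0.0033) and HBM (-0.0001) with outlier spots kept, FASN (-0.89) with the scanner's ratio and the series matrix, and HBM without array 1. The alternatives not named above left the count of called genes between 71 and 86. Both Si306 comparisons share 1 slide, whose arrays each hold RNA with and without Si306. The slide therefore does not divide treated from untreated RNA, but it cannot be told apart from the kind of comparison. An effect of the slide on these ratios could not be separated from the Si306 change.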
